A study of Mus musculus with 4 samples.

Results

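The 9 genes described here encode proteins of the myelin sheath and of the oligodendrocytes that make it: Mbp, Mobp, Mal, Cldn11, Mag, Mog, Cnp, Ermn and Opalin. They were taken by symbol from the gene tables of a Visium spatial transcriptomics study of the mouse brain, and all 9 were listed in each of the 4 tables, out of 22376 genes listed in any of them. They were followed in 6 regions: substantia nigra (SN), ventral tegmental area (VTA) and thalamus on midbrain sections, and the caudate putamen (CP), the lateral septal complex (LSX) and the white matter tracts on striatal sections.

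The study asked what a chronic rise in the activity of midbrain dopamine neurons does to these neurons and to their target, in male homozygous DATiCre mice of 3 to 4 months, which carry Cre under the dopamine transporter gene. GqCNO mice (n = 3, named 801, 804 and 781) received a Cre-dependent AAV coding for the excitatory designer receptor hM3Dq(Gq) fused to mCherry in both sides of the midbrain, and then its ligand clozapine-N-oxide (CNO) at 300 mg/L in water with 2% sucrose for 1 week. GqVeh mice (n = 3, named 802, 784 and 785) had the same injection and drank sucrose water without CNO. CNO alone mice (n = 2, named C2W2 and C1W7) were not injected and drank the CNO water. All 8 mice carried the Cre allele and were single housed with a running wheel. The receptor was confined by design to Cre-expressing dopamine neurons, so that oligodendrocytes were not its target cells in any group.

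Myelin is a spiral of oligodendrocyte membrane around an axon. In its compact part the membrane faces are zipped together by basic proteins and proteolipids, while the innermost and outermost turns and the loops beside the nodes keep cytoplasm and carry adhesion molecules. Fiber tracts are rich in these cells, and the nuclei of the midbrain, the striatum and the septum hold fewer of them, scattered between neurons or bundled with passing axons. In averages over discs that hold several cells, fewer oligodendrocytes and less RNA per oligodendrocyte cannot be told apart.

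Each value is the level of a gene in the discs of 1 region of 1 mouse, given as unique molecular identifiers (UMIs, 1 per captured transcript) per 10000 UMIs. A disc is 55 μm wide and covers several cells. The depth differed widely between regions: 4300381 to 7977003 UMIs per mouse in the CP, 119422 to 405313 in the white matter, 80525 to 1354667 in the LSX, 80837 to 444790 in the thalamus, 25808 to 350222 in the VTA and 7779 to 71906 in the SN. The SN of GqCNO mice 801 and 781 came from 1 disc each, and mouse 801 had no thalamus values. The mice were spread over array pair 1 (801, 804, 802 and C2W2) and array pair 2 (781, 784, 785 and C1W7), each with a midbrain and a striatal array. The column names mark every mouse of pair 1 as C2 and every mouse of pair 2 as C1. Array pair and this label therefore cannot be told apart. In the methods, Mbp served to choose the white matter discs, so its step from white matter to other regions is given as a description with no test. Comparisons of groups and of array pairs within the white matter include Mbp. Discs rich in Gfap and Aldh1l1 of astrocytes or in Aif1 and P2ry12 of microglia had been dropped. The label of the cells was checked against markers of peripheral myelin: the summed level of 6 Schwann cell genes was at most 0.155 per 10000 in any mouse and region, against 287 to 576 for the summed 9 genes in the white matter.

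The promoters of the members are shown for what they share in letters, since the 9 genes are read by the same cell type. RefSeq windows of 300 bases, 250 before and 50 after a transcription start (GRCm38.p6), were matched by symbol for 8 of the 9 members in 10 windows, with 3 windows for Mag. On both strands they were searched for CTGGNAC, the letters bound by MYRF, the transcription factor of myelinating oligodendrocytes, and for ACAAAG and ACAATG, letters bound by SOX proteins such as SOX10. CTGGNAC occurred in windows of 4 of the 8 genes (Mag, Mog, Cnp and Opalin), and 21.4% of the 27025 genes of the table had it in any of their windows (19.28% of 32851 windows). ACAAAG or ACAATG occurred in 5 of the 8 (Mobp, Mag, Cnp, Ermn and Opalin), against 31.7% of all genes (28.6% of windows), and neither motif stood in the windows of Mal and Cldn11. No match overlapped a match to another motif. The 4 windows printed here were chosen for their matches, shown in capitals on either strand: Mobp has 6 matches to ACAAAG and none to CTGGNAC, Mog has 1 match to CTGGNAC alone, and Mag and Cnp each have 2 to CTGGNAC and 1 to ACAAAG. A match is a stretch of letters and not a measured binding site. The windows lie at chr9:120149492-120149791 (plus strand) for Mobp, chr7:30914814-30915113 (minus strand) for Mag, chr17:37023349-37023648 (minus strand) for Mog and chr11:100574689-100574988 (plus strand) for Cnp.
Mobp: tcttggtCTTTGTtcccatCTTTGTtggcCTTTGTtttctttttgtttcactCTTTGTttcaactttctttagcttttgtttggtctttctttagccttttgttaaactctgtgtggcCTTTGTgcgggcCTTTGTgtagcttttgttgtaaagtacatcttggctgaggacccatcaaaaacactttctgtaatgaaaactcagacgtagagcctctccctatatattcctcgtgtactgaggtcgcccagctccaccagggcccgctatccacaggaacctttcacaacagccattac
Mag: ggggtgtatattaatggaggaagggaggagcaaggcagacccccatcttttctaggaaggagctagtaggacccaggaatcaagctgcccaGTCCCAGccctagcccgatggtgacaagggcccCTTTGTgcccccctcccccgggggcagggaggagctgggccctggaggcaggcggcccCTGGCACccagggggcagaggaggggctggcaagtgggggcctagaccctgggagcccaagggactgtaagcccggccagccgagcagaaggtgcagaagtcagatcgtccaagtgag
Mog: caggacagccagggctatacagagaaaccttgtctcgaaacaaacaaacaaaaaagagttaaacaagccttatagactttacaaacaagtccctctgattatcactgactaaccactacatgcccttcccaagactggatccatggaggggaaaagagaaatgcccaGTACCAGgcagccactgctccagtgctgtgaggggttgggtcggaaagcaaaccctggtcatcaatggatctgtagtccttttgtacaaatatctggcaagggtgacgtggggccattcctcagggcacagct
Cnp: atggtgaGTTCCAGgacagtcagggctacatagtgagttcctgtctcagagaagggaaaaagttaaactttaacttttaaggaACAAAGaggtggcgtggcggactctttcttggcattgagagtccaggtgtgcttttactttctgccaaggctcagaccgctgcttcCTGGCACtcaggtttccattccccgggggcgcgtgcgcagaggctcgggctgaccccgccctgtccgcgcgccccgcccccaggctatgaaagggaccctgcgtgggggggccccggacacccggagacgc

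All 9 genes had their highest mean level in the white matter, the CP came next to last and the LSX last. The summed level of the 9 genes averaged 439 ± 89.0 per 10000 in the white matter, 43.2 ± 4.61 in the CP and 15.0 ± 5.44 in the LSX (SD, n = 8 mice each). On the midbrain sections it averaged 76.8 ± 22.8 in the SN, 72.9 ± 17.6 in the VTA (n = 8 each) and 56.8 ± 14.0 in the thalamus (n = 7). The lowest white matter sum, 287, was above the highest sum of any other region, 107 in the SN. The midbrain and striatal arrays were normalized separately, so that levels were set side by side across them without a test.

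**Figure D1:**
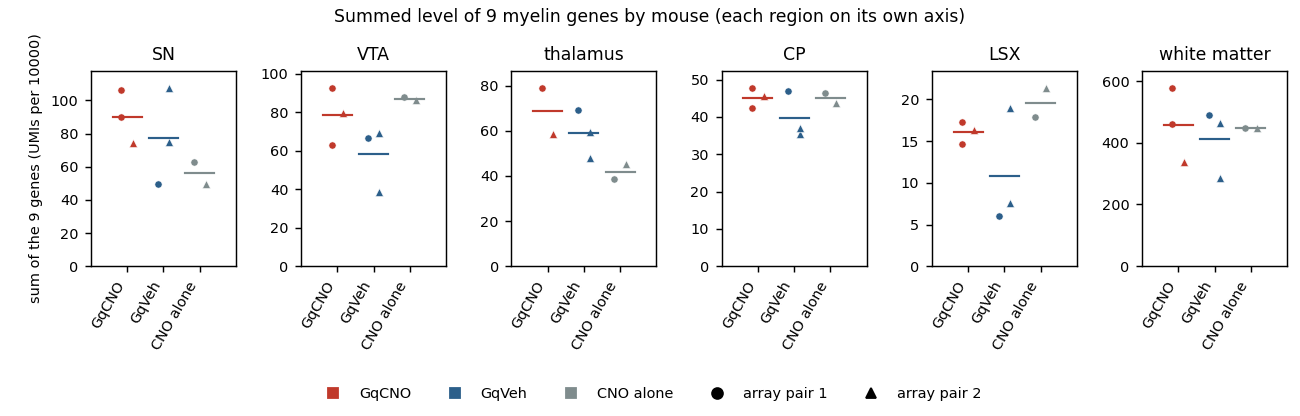
Summed level of the 9 myelin genes in UMIs per 10000 (y axis, a scale of its own for each region) for each mouse, with groups from left to right as GqCNO, GqVeh and CNO alone. Colors mark groups and symbols mark array pairs. The white matter sums of 287 to 576 lie far above the LSX sums of 5.97 to 21.3, and in every region the GqCNO mice overlap the control mice.

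Mbp codes for myelin basic protein, which holds the cytoplasmic faces of compact myelin together. In the white matter it had 340, 293 and 207 UMIs per 10000 in the GqCNO mice, 308, 184 and 292 in the GqVeh mice, and 277 and 271 in the CNO alone mice. The highest and the lowest mouse differed 1.84-fold and came from different groups, and the 3 groups overlapped. Its level was 26.0 ± 2.60 in the CP and 9.18 ± 3.44 in the LSX (SD, n = 8). In the CP it stayed between 22.2 and 29.1 in all 8 mice, the narrowest spread of any member and region together with that of Cnp in the CP.

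Mobp, a second basic protein of compact myelin, had 105, 77.5 and 56.7 in the white matter of the GqCNO mice, 76.5, 41.1 and 69.2 in the GqVeh mice, and 73.2 and 68.6 in the CNO alone mice. GqVeh mouse 784 was the lowest and GqCNO mouse 801 the highest. The CP level was 9.89, 7.85 and 7.85 in the GqCNO mice, 8.66, 5.67 and 6.18 in the GqVeh mice, and 8.59 and 7.31 in the CNO alone mice. The same mice stood at the ends of the range in both regions.

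Mal, a proteolipid that sorts lipids and proteins to the myelin membrane, had 32.7, 21.5 and 17.0 in the white matter of the GqCNO mice, 25.9, 12.2 and 20.7 in the GqVeh mice, and 22.2 and 23.6 in the CNO alone mice. Cldn11 forms the tight junctions between the turns of the sheath. It had 23.1, 14.5 and 12.2 in the GqCNO mice, 16.0, 8.95 and 15.6 in the GqVeh mice, and 14.4 and 17.6 in the CNO alone mice. For both genes mouse 784 was the lowest and mouse 801 the highest, with the 3 groups overlapping.

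Mag and Mog are adhesion molecules of the immunoglobulin family, Mag on the turn next to the axon and Mog on the outer face of the sheath. White matter Mag was 21.2, 14.4 and 10.5 in the GqCNO mice, 17.1, 11.4 and 17.0 in the GqVeh mice, and 15.2 and 16.2 in the CNO alone mice. White matter Mog was 8.96, 7.04 and 6.14 in the GqCNO mice, 6.47, 4.89 and 7.96 in the GqVeh mice, and 6.38 and 10.2 in the CNO alone mice. For Mag the GqCNO mice held both ends of the range, and for Mog the highest mouse was C1W7, given CNO without the receptor.

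Cnp, a phosphodiesterase that keeps the cytoplasmic channels of myelin open, had 31.0, 24.0 and 20.2 in the white matter of the GqCNO mice, 27.9, 17.1 and 29.3 in the GqVeh mice, and 28.4 and 28.9 in the CNO alone mice. Ermn codes for ermin, which binds actin in the processes of oligodendrocytes. Its white matter level was 7.62, 4.80 and 2.84 in the GqCNO mice, 5.25, 2.25 and 3.21 in the GqVeh mice, and 5.95 and 3.13 in the CNO alone mice. It spread the most of the 9 genes there, 3.38-fold between the highest and the lowest mouse, and its 4 highest mice were the 4 of array pair 1.

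Opalin codes for a membrane glycoprotein of the inner loops of myelin and is found in oligodendrocytes of the mammalian brain. It had 6.62, 4.83 and 6.41 in the white matter of the GqCNO mice, 5.70, 5.24 and 8.82 in the GqVeh mice, and 6.14 and 9.02 in the CNO alone mice. Unlike the members above, it was lowest in GqCNO mouse 804, and like Mog it was highest in CNO alone mouse C1W7. Over the 9 genes, GqVeh mouse 784 was the lowest of all 8 mice for 7 in the white matter and GqCNO mouse 801 the highest for 7.

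**Figure D2:**
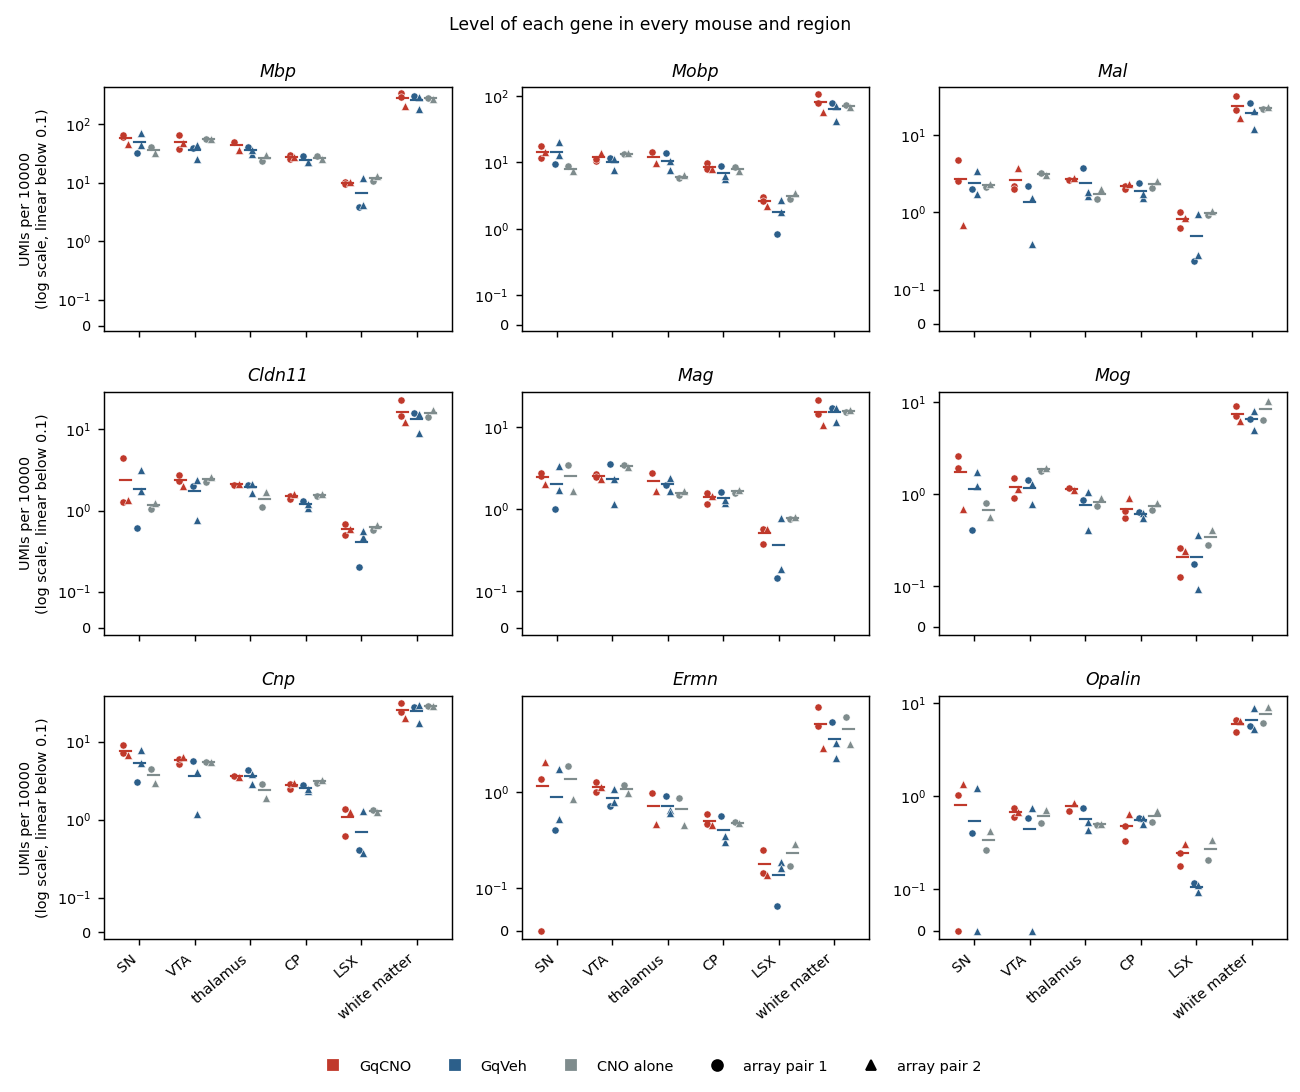
Level of each member in UMIs per 10000 (y axis, log scale, linear below 0.1) in every mouse for the 6 regions (x axis). Colors mark the groups, GqCNO left of the controls, and symbols mark array pairs. Short lines are group means. Every gene has its highest mean in the white matter and its lowest in the LSX, and Ermn and Opalin drop to 0 in SN or VTA columns of few UMIs.

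The step between white matter and the other striatal regions was tested within mice, with limma on the difference of log2 levels after adding 0.05 and with Benjamini-Hochberg adjustment over all genes. White matter exceeded the CP by 3.05 ± 0.14 (Ermn) to 3.48 ± 0.13 (Opalin) on the log2 scale (SE) for the 8 members other than Mbp, all 8 of which passed at an adjusted p under 0.05, while 16.2% of all genes tested were higher in white matter. In ratios of mean levels this was 9.16-fold for Mobp to 12.1-fold for Opalin. Mbp itself, by which the discs were chosen, was 10.4-fold higher. White matter exceeded the LSX by 4.27 ± 0.23 (Ermn) to 4.91 ± 0.17 (Mal) in the same 8 members, all of which passed, against 12.9% of all genes that were higher in white matter. Every one of these differences was positive in 8 of 8 mice, with an exact sign-flip p of 0.0078125, two-sided, the smallest that 8 mice can give. The other 8 members moved with Mbp, by which the discs were chosen (r = 0.998 between Mbp and their mean in the striatal columns). These p-values therefore describe the chosen discs and are no independent test of the step.

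The CP and the LSX are both gray matter, but myelinated bundles of the internal capsule run through the CP. All 9 members were higher in the CP, by 1.23 ± 0.20 (Ermn) to 1.74 ± 0.17 (Mobp) on the log2 scale, with adjusted p-values of limma from 3.7e-06 (Mbp) to 0.00041 (Ermn), against 15.2% of all genes that were higher in the CP. The ratio of mean levels was 2.63-fold for Cldn11 to 3.22-fold for Mobp, higher in 8 of 8 mice for each gene (exact sign-flip p = 0.0078125). The LSX values scattered more than those of the CP. Mbp in the LSX was 10.1, 9.31 and 10.1 in the GqCNO mice, 3.79, 4.09 and 12 in the GqVeh mice, and 10.8 and 13.1 in the CNO alone mice, so that a pair of GqVeh mice lay apart from the 6 other mice. These were mice 802 and 784, with 29 and 6 discs in the LSX, and mouse 802 was the lowest of all for 6 of the 9 members there.

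Within the midbrain the members differed little between regions. No member passed in limma between the SN and VTA, or had an unadjusted p under 0.05 there, where 0.0481% of all genes were higher in the SN. For Mbp the SN differed from the VTA by 0.07 (95% interval -0.14 to 0.27) and for Cnp by 0.23 (-0.20 to 0.66), both on the log2 scale, while the interval of Opalin ran from -0.68 to 0.49. The data thus left room for differences of either sign in every member.

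Calls between the thalamus and the other midbrain regions were few, near the share of all genes, and not stable. Cnp was higher in the SN than in the thalamus by 0.59 ± 0.21 (SE; adjusted p of limma 0.026; 6 of 7 mice; exact sign-flip p = 0.046875), 1 of 9 members, against 7.71% of all genes that were higher in the SN. In the VTA, Mbp was higher than in the thalamus by 0.40 ± 0.15 (adjusted p = 0.044; 5 of 7 mice; exact p = 0.15625) and Mog by 0.45 ± 0.17 (adjusted p = 0.040; 6 of 7 mice; exact p = 0.0625), 2 of 9 members, against 14.1% of all genes that were higher in the VTA. With 7 mice the exact test cannot go below 0.015625. All 3 calls were lost with TMM scaling, which moved the median of all genes between the SN and thalamus to -0.31, against -0.07 without it, and that of the members to -0.25, against 0.13. They were also lost with UMIs thinned to the lowest total of the pair. Without GqVeh mouse 802 the count between the SN and thalamus was 3, and without mouse 785 the count between the VTA and thalamus was 5.

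**Figure D3:**
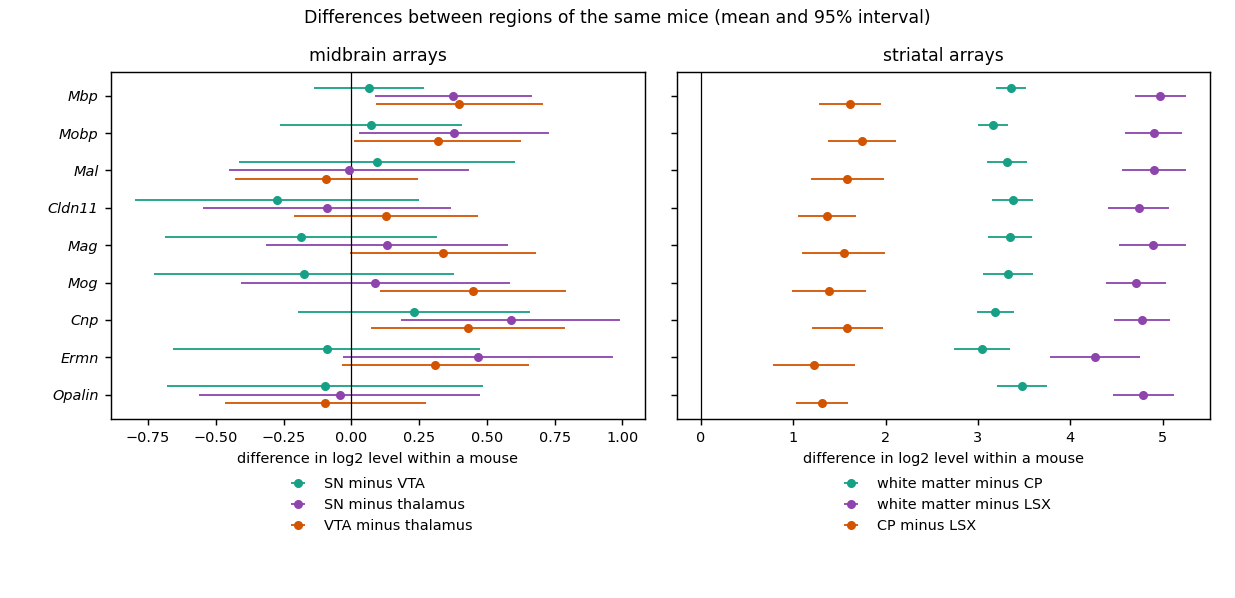
Difference in log2 level between regions of the same mice (x axis) for each member (rows), as the mean with its 95% interval, on midbrain arrays (left) and striatal arrays (right). White matter minus CP and white matter minus LSX have medians of 3.33 and 4.79 over the 9 genes, CP minus LSX one of 1.54, and the midbrain differences lie between -0.27 (Cldn11) and 0.59 (Cnp).

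The question of the study, GqCNO against its controls, was answered for each member in each region by limma on log2 levels, with 3 group means and all genes tested. No member passed at an adjusted p under 0.05 in any of the 6 regions, in limma or in the quasi-likelihood test of edgeR on the recovered UMIs. At an unadjusted p under 0.05 limma gave 1 member, Mbp in the SN, and edgeR gave 0. Of all genes tested, limma called 0.648% in the SN, 1.52% in the VTA, 0% in the thalamus, 0% in the CP, 0% in the LSX and 0.0367% in the white matter. edgeR called 54 genes in the SN, 142 in the VTA, 0 in the thalamus, 1 in the CP, 0 in the LSX and 5 in the white matter.

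In the SN, Mbp had 60.4, 65.6 and 44.8 in the GqCNO mice, 32.3, 43.8 and 70.9 in the GqVeh mice, and 40.2 and 32.4 in the CNO alone mice. The 3 GqCNO mice were higher than 4 of the 5 control mice, and GqVeh mouse 785 was the highest of all. The log2 difference was 0.42 ± 0.19 (SE; 95% interval 0.04 to 0.79; adjusted p = 0.57 in limma). In the SN fit of limma a gene's own spread between mice had almost no weight in such intervals. Counting error was large in the mice with 1 disc: the 95% Wilson interval was 45.5 to 80.2 in mouse 801 and 35.3 to 57.0 in mouse 781. These intervals cover counting error only.

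Cnp in the SN had 9.0, 7.20 and 6.79 in the GqCNO mice, 3.03, 7.73 and 5.26 in the GqVeh mice, and 4.49 and 2.92 in the CNO alone mice. Mouse 784 lay among the GqCNO mice and the other control mice lay below them (log2 difference 0.72, 95% interval -0.04 to 1.49, adjusted p = 0.65 in limma). Over the 9 members the median difference in the SN was 0.36, with 7 above 0, beside a median of -0.08 over all genes. With TMM scaling these medians were 0.13 for the members and -0.21 for all genes. Ermn and Opalin had 0 UMIs in the SN of mouse 801, which at 7779 UMIs allows a level of up to 3.86 per 10000, and Opalin had 0 in mouse 784, which allows up to 2.58. The intervals of the difference in the SN were wide for both genes, -1.19 to 0.94 for Ermn and -0.76 to 1.45 for Opalin.

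The discs of the SN differed in the summed marker RNA of other cells as well. In the methods, the SN and VTA discs were chosen with the dopamine neuron genes Th, Slc6a3 and Slc18a2. The summed level of 12 microglia genes ran from 34.7 to 67.3 in the GqCNO mice, against 3.44 to 44.7 in the control mice, with C1qa and C1qb called higher. The summed 12 astrocyte genes ran from 46.2 to 93.8, against 37.8 to 54.1. Of these 12, only Gfap was called higher, and 7 had a difference above 0. The 12 neuronal genes ran from 34.7 to 74.7, against 51.5 to 112, with Gap43 and Stmn2 called lower, and the 7 dopamine neuron genes from 14.1 to 59.8, against 56.9 to 97.0, with 4 called lower. The hemoglobin and red blood cell genes ran from 7.47 to 32.1, against 0.202 to 18.5, with Hba-a1, Hba-a2 and Hbb-bs called higher. These sums do not separate cell number from RNA per cell, and their part in the levels of the members was not tested.

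In the VTA the groups overlapped for all 9 members. Mbp had 37.6, 64.7 and 48.2 in the GqCNO mice, 39.1, 44.4 and 25.6 in the GqVeh mice, and 56.5 and 54.7 in the CNO alone mice (log2 difference 0.20, 95% interval -0.22 to 0.63). The spread came in large part from GqVeh mouse 785, whose VTA held 2 discs and 25808 UMIs and which was the lowest of the 8 mice for 8 of the 9 members, with Opalin at 0 (up to 1.16 allowed). Mag and Mog had differences below 0, -0.04 ± 0.26 and -0.19 ± 0.25, and the median of the 9 members was 0.20. As in the SN, markers of other cell types moved: the summed microglia genes ran from 35.3 to 92.9 in the GqCNO mice, against 4.53 to 26.8 in the control mice, and the neuronal genes from 46.8 to 72.4, against 86.3 to 112. Their part in the levels of the members was not tested.

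In the thalamus, with 2 GqCNO mice, all 9 differences were above 0, with a median of 0.30 beside -0.01 over all genes. Mog had 1.15 and 1.11 in the GqCNO mice, 0.846, 0.404 and 1.04 in the GqVeh mice, and 0.742 and 0.900 in the CNO alone mice. It was the only member in any region whose GqCNO mice all lay beyond the 5 control mice, while 7.64% of all genes tested in the thalamus did so in either direction. The shares of genes not overlapping were 6.11% in the SN, 8.22% in the VTA, 3.07% in the CP, 3.49% in the LSX and 2.37% in the white matter, and no member was among them. The difference of thalamic Mog was 0.36 ± 0.22 (adjusted p = 1.0 in limma), and that of Mobp 0.48 ± 0.27, from 14.5 and 9.67 in the GqCNO mice, 13.7, 7.54 and 10.4 in the GqVeh mice, and 5.81 and 6.35 in the CNO alone mice. For Mobp the CNO alone mice were the lowest and the GqVeh mice overlapped the GqCNO mice.

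The CP, the target of the nigral axons, gave the narrowest intervals. Mbp had 29.1, 25.0 and 27.4 there in the GqCNO mice, 28.4, 22.2 and 22.7 in the GqVeh mice, and 28.1 and 25.5 in the CNO alone mice, a log2 difference of 0.10 (95% interval -0.15 to 0.35). For Cnp the difference was 0.01 (-0.23 to 0.24) and for Mag -0.08 (-0.36 to 0.20). Over the 9 members the widest interval was that of Opalin, -0.65 to 0.10. The median of the members was 0.10, with 7 above 0, and that of all genes was near 0.

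In the LSX and the white matter the intervals were wide again. The LSX median was 0.31 with 8 members above 0, and Mbp differed by 0.36 (-0.28 to 1.0). In the white matter the median was 0.07 with 6 members above 0, Mobp differed by 0.27 (-0.23 to 0.76) and Opalin by -0.21 (-0.68 to 0.27). Beside the white matter result, 4 of 5 hemoglobin and red blood cell genes were called higher in the GqCNO mice, whose summed level was 27.5 to 35.5 against 6.14 to 14.3 in the control mice, and whose part in the levels of the members was not tested. Such genes were also called higher in the SN, and none was called in the VTA, thalamus, CP or LSX.

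**Figure D4:**
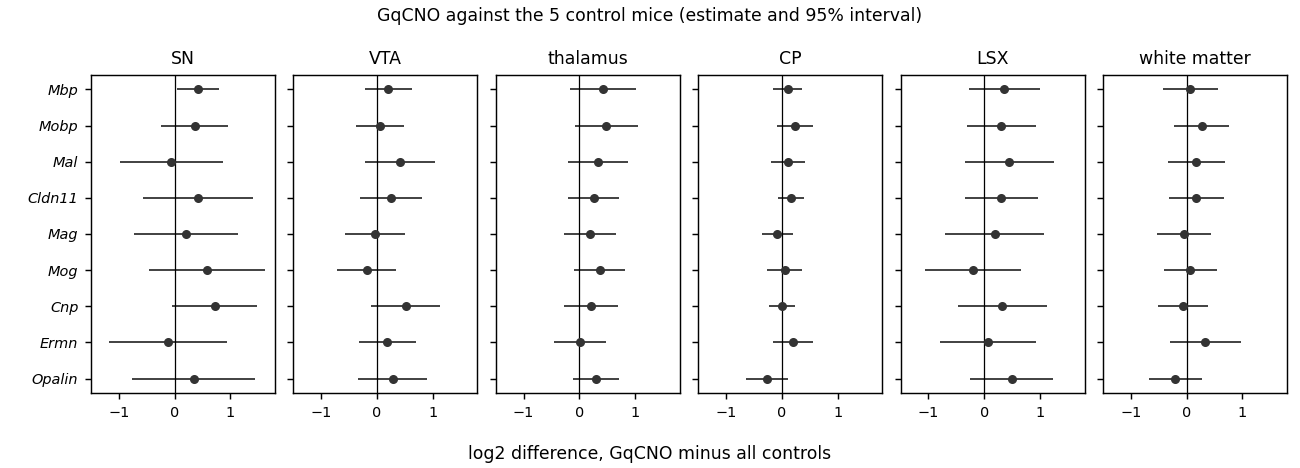
Log2 difference between GqCNO mice and the 5 control mice (x axis) for each member (rows) in each region, as the estimate of limma with its 95% interval. The interval of Mbp in the SN (0.04 to 0.79) does not reach 0, before adjustment over all genes, and those of the CP are the narrowest.

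The responses of 2 regions of the same mice were compared in limma on the difference per mouse. No member passed in any of the 6 region pairs, and at an unadjusted p under 0.05 Opalin alone was counted, in white matter against the LSX (-0.69 ± 0.33) and in the CP against the LSX (-0.76 ± 0.27). Of all genes, 0% passed between the SN and VTA, 0.078% between the SN and thalamus, 0.785% between the VTA and thalamus, and 0% in the 3 striatal pairs.

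Against each control group alone, in contrasts that share mice, the members again gave no call, in limma, for any of the 3 contrasts in the 6 regions. Against GqVeh mice limma called 0.194% of all genes in the SN, 0.475% in the VTA, 0% in the thalamus, 0.0462% in the CP, 0% in the LSX and 0.0367% in the white matter. At an unadjusted p under 0.05 this left 2 members in the VTA (Cnp by 0.81 and Mal by 0.86), 1 in the CP (Cldn11 by 0.31) and 3 in the LSX (Mbp by 0.78, Opalin by 0.89 and Mal by 0.92), all higher in GqCNO mice. Against CNO alone mice it called 0.615% (SN), 1.12% (VTA) and 0% (each of the other 4 regions). Here 3 members in the SN (Mbp by 0.63, Mobp by 0.79 and Cnp by 0.97) and Mobp in the thalamus (by 0.91) had an unadjusted p under 0.05, all higher in GqCNO mice.

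The control groups were also set against each other. GqVeh minus CNO alone had a median over the members of -0.53 in the VTA, -0.27 in the CP, -1.01 in the LSX and -0.25 in the white matter, with 0 of 9 members above 0 in each, but 0.33 in the SN and 0.32 in the thalamus. At an unadjusted p under 0.05, limma gave 6 members in the LSX, from -0.92 (Mobp) to -1.32 (Mag), 2 in the VTA, 2 in the thalamus and 1 in the CP. None passed after adjustment, against shares of all genes of 0.0648% (SN), 0.0792% (VTA) and 0% (each of the other 4 regions). The injection and CNO both differ between these groups, so that their effects cannot be told apart. The GqCNO median took its sign from the choice of control in the VTA (0.42 against GqVeh and -0.18 against CNO alone), the CP (0.16 and -0.07) and the LSX (0.71 and -0.27).

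Both array pairs held all 3 groups, so that the groups were also compared within them. In array pair 2 and array pair 1, the median of the members between GqCNO and control mice was -0.05 and 0.65 (SN), 0.28 and -0.01 (VTA), 0.27 and 0.35 (thalamus), 0.26 and -0.08 (CP), 0.19 and 0.60 (LSX), and -0.22 and 0.11 (white matter). The sign was the same in both pairs for 3 members in the SN, 5 in the VTA, 7 in the thalamus, 2 in the CP, 7 in the LSX and 3 in the white matter.

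In the CP 2 of 9 members passed between the array pairs, beside 29% of all genes. This comparison was added after the data were seen. With the 3 groups in the fit, Mobp was lower in pair 2 than in pair 1 by 0.32 ± 0.09 on the log2 scale (SE; adjusted p of limma 0.0086), and Ermn fell by 0.33 ± 0.11 (adjusted p = 0.030). Mobp in the CP had 7.85, 5.67, 6.18 and 7.31 in pair 2 and 9.89, 7.85, 8.66 and 8.59 in pair 1. Ermn had 0.449, 0.297, 0.349 and 0.475 in pair 2 and 0.457, 0.581, 0.557 and 0.480 in pair 1. Both calls were lost without GqVeh mouse 802, without which 12.6% of genes were called, and that of Ermn was also lost without mouse 804, 784 or 785. Opalin (0.30, adjusted p = 0.063) and Mog (0.23, adjusted p = 0.091) ran the other way in the CP without passing, and both passed without mouse 785 and without mouse 802.

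In the white matter no member passed between the pairs in limma, with 4 at an unadjusted p under 0.05 and 0.11% of all genes called. Ermn differed most: it had 2.84, 2.25, 3.21 and 3.13 in pair 2 and 7.62, 4.80, 5.25 and 5.95 in pair 1, with no overlap between the pairs and a log2 difference of -0.99 ± 0.20 (adjusted p = 0.055). Without GqVeh mouse 785 it passed. Elsewhere the share of genes called between pairs was 0.0162% in the SN, 0% in the VTA, 0.547% in the thalamus and 0% in the LSX, with no member among them, and at an unadjusted p under 0.05 limma counted 1 member, in the thalamus.

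**Figure D5:**
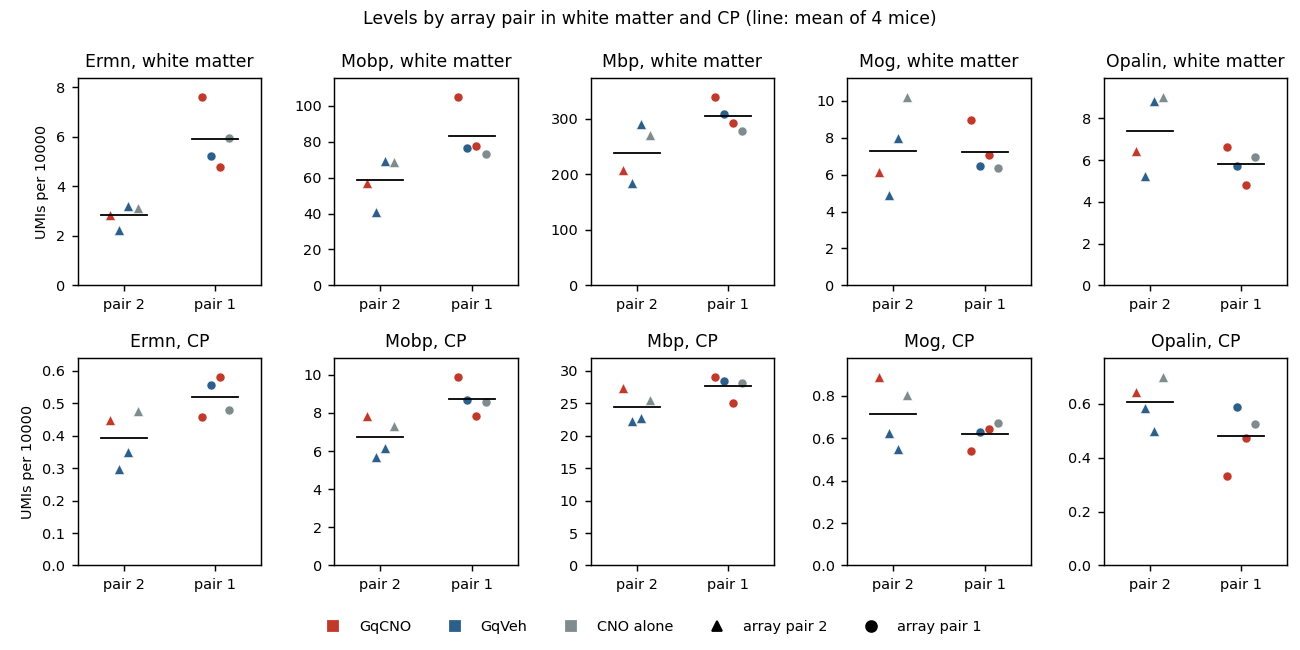
Levels in UMIs per 10000 (y axis, from 0) of Ermn, Mobp, Mbp, Mog and Opalin in the white matter and CP by array pair (x axis, pair 2 left of pair 1), with 1 point per mouse and the mean of 4 mice as a line. Ermn in the white matter lies between 2.25 and 3.21 in pair 2 and between 4.80 and 7.62 in pair 1, without overlap.

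The makeup of the summed level does not depend on how a column is scaled. Mbp held a median of 62.3% of the sum of the 9 genes in the white matter, 60.5% in the CP, 61.9% in the LSX, 64.5% in the SN, 62.2% in the thalamus and 63.8% in the VTA. Mobp held 16.0% in the white matter and 17.8% in the CP, and Cnp 5.95% and 6.48%. Across mice the share of Mbp in the white matter stayed between 59.0% and 64.1%.

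Other shares differed between array pairs. Mobp held 16.0% to 17.2% of the sum in the CP of pair 2 and 18.4% to 20.8% in pair 1, without overlap. In the white matter the share of Opalin was 1.82% to 2.01% in pair 2 and 1.05% to 1.37% in pair 1, and that of Mog 1.70% to 2.28% and 1.32% to 1.56%. The share of Ermn was 0.69% to 0.84% in pair 2 and 1.04% to 1.33% in pair 1. None of these ranges overlapped, and in the CP those of Opalin, 1.35% to 1.65% in pair 2 and 0.70% to 1.25% in pair 1, did not overlap. These shares are descriptions with no test.

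Across all 47 columns (8 mice, 6 regions, 1 missing) the members moved together: the correlation of each with the mean log2 level of the 8 others ran from 0.91 (Ermn) to 0.99 (Mbp). These columns share mice, arrays and the white matter step, and within the 23 midbrain columns the correlations ran from 0.19 (Ermn) and 0.37 (Opalin) to 0.84 (Mbp), while within the 24 striatal columns they ran from 0.98 to 1.0.

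Of 4773 other genes above the filter in every region, the 10 most like the mean of the members over the 47 columns included Plekhb1 (r = 0.98), Ppp1r14a (0.97), Cryab (0.97), Sept4 (0.97), Trf (0.96), Bcas1 (0.96), Qdpr (0.95), Gpr37 (0.95) and Ndrg1 (0.95). Trf codes for transferrin, the iron carrier made by oligodendrocytes. Trf averaged 27.8 in the white matter, 3.25 in the CP and 1.25 in the LSX, and Cryab, a small heat shock protein, 15.6, 1.5 and 0.57. Of the 10, 8 were also among the 10 most alike in the 30 columns of control mice, 7 in the striatal columns and 4 in the midbrain columns. Gria1, a glutamate receptor subunit of neurons, ran most opposite (r = -0.88).

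Lists of oligodendrocyte genes followed the members across regions, in lists chosen with earlier results known and in white matter discs chosen by Mbp. The lists hold the members themselves, which are counted again here. Mobp, Mal, Cldn11 and Opalin stand among the compact myelin genes. Mag, Mog, Cnp and Ermn stand among those of the inner, outer and paranodal myelin. Between white matter and the CP, limma called all 11 compact myelin genes other than Mbp higher in white matter, 18 of 18 genes of the inner, outer and paranodal myelin, 13 of 14 genes of myelin lipid synthesis, 9 of 10 lineage transcription factors and 24 of 24 other mature oligodendrocyte genes. Of all genes tested, 16.2% were higher in white matter. Of other cell types, 10 of 12 microglia, 7 of 12 astrocyte and 1 of 12 neuronal genes were. By the rule for naming, Scd2, which makes unsaturated fatty acids, had 16.8 ± 2.46 in the white matter and 5.08 ± 0.42 in the CP (SD, n = 8; 1.71 ± 0.08 on the log2 scale, SE). Olig1, a lineage transcription factor, had 5.72 ± 1.54 and 0.885 ± 0.0607 (2.58 ± 0.12), and Nkx6-2, another, 2.40 ± 0.457 and 0.254 ± 0.0397 (3.00 ± 0.15). Of 10 state genes, which change in stressed or reactive oligodendrocytes, 8 were higher and 1 lower, S100b by 0.97 and Il33 by 2.53 among the higher ones.

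Of genes of earlier stages, 9 of 9 of the newly formed list were higher in white matter than in the CP, and 5 of 8 higher than in the LSX. Of 13 precursor genes, 8 were higher and 1 lower in white matter than in the CP, and of 14 against the LSX, 2 were higher and 2 lower, beside the shares of all genes higher in white matter of 16.2% against the CP and 12.9% against the LSX. These counts were not tested against those of other lists. Cspg5 and Ptprz1, of the precursor list, exceeded the CP by 0.25 ± 0.09 and 0.44 ± 0.13 on the log2 scale. Bcas1, of newly formed oligodendrocytes, exceeded it by 2.94 ± 0.11, and Fyn, a kinase that acts early in myelination, by 0.65 ± 0.14. All 4 differences passed in limma.

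For GqCNO against all controls, limma called none of the compact myelin, inner and outer myelin, lipid synthesis, transcription factor, newly formed or precursor genes in any region, out of 53 tested in the SN, 56 in the VTA, 53 in the thalamus, 72 in the CP, 70 in the LSX and 77 in the white matter. These totals add up the lists, so that Olig2 and Gpr17, which lists share, can count more than once. They also include the members, whose results are given above. At an unadjusted p under 0.05 limma counted 3, 5, 1, 4, 2 and 1 in the same order of regions, and edgeR called 1, Cd9 in the VTA. In the SN limma called Apod, an apolipoprotein made by mature oligodendrocytes and other cells, and Ptgds, which makes prostaglandin D and carries lipids. Apod had 50.1, 23.1 and 10.2 in the GqCNO mice, 8.88, 9.45 and 9.65 in the GqVeh mice, and 6.08 and 4.17 in the CNO alone mice (1.58 ± 0.32 on the log2 scale, adjusted p = 0.00025). The GqCNO mice lay above all controls, mouse 781 narrowly so, and without mouse 801, whose SN was 1 disc, the difference was 1.02 (adjusted p = 0.25). The call was also lost without mouse 804, whose SN held 5 discs, with a difference of 1.57 (adjusted p = 0.11).

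Ptgds had 93.8, 22.1 and 23.8 in the SN of the GqCNO mice, 19.2, 24.0 and 21.4 in the GqVeh mice, and 9.51 and 10.7 in the CNO alone mice (1.18 ± 0.25, adjusted p = 0.00092). Only mouse 801 lay above mouse 784, and without mouse 801 the difference was 0.51 (adjusted p = 0.83). Its call was also lost without CNO alone mouse C2W2 (1.01, adjusted p = 0.073). In mouse 801 the summed endothelial and mural genes were at 47.6 too, against 10.0 to 23.0 in the control mice. edgeR called Apod but not Ptgds, and with TMM scaling in limma neither gene passed (adjusted p = 0.22 for Apod and 0.53 for Ptgds). The limma p-values of both genes in the SN gave their own spread between mice almost no weight.

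In the VTA the called genes of the lists were C4b and Serpina3n, both of which rise in stressed oligodendrocytes and in astrocytes of the mouse. C4b, a complement component, had 3.66, 5.72 and 3.37 in the GqCNO mice, 1.29, 1.08 and 0.387 in the GqVeh mice, and 0.206 and 0.20 in the CNO alone mice (2.15 ± 0.27, adjusted p = 9.8e-05). Serpina3n, a protease inhibitor, had 1.26, 5.22 and 5.28 in the GqCNO mice, 1.99, 1.32 and 0 in the GqVeh mice, and 0.103 and 0.143 in the CNO alone mice (1.99 ± 0.42, adjusted p = 0.011). For C4b the groups did not overlap and the call held without each mouse in turn (adjusted p up to 0.010), whereas for Serpina3n mouse 801 lay among the GqVeh mice and the call was lost without mouse 781 (adjusted p = 0.21) or 804 (0.27). edgeR called both genes in the VTA, and in the SN as well, where limma did not. Gfap and Aqp4 of astrocytes were called higher in the same discs, and which cells carried C4b and Serpina3n was not tested. In the white matter, where the myelin genes are highest, C4b was 0.251, 0.492 and 0.469 in the GqCNO mice, 0.426, 0.127 and 0.401 in the GqVeh mice, and 0.184 and 0.475 in the CNO alone mice, with the groups overlapping.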

How the data were processed

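Reads were aligned by the authors with Space Ranger to the mouse build mm10 (tool version not given in the sources used here). The authors chose discs per region by marker genes and deposited, for each region and mouse, a median-normalized average per gene, a signal that is not a raw count. Each deposited signal column proved to be a whole UMI number times a constant step: 100% of values under 200 steps were whole within 0.05. UMIs were recovered in this way and each column was rescaled to 10000. Arrays were normalized separately, so that midbrain and striatal sections were not tested against each other. limma 3.58.1 (R 4.3.3) was run on log2(level + 0.5) on midbrain and log2(level + 0.05) on striatal arrays, for genes with a mean of at least 0.25 or 0.05, with 3 group means, a trended prior and Benjamini-Hochberg adjustment per region. Fold changes on this scale understate the change of low genes. Regions were compared by limma on differences within mice, with an exact two-sided sign-flip test beside it. The quasi-likelihood test of edgeR 4.0.16 on the recovered UMIs was an alternative, as were other scalings, constants, filters, thinning, the array pair as a block and leaving out each mouse. The GqCNO fits of the VTA and the CP and the fit of the CP against the LSX were tried on simulated data. The same spread was set there for every gene. The SN, the other regions and the other region pairs were not simulated. Mice are columns of the 4 arrays' tables, and p-values rest on the spread between these mice. limma draws the spread of each gene toward that of genes of like level. For the SN, the total degrees of freedom were 24696 between array pairs, 31210 against the VTA and 25628 against the thalamus. In these fits a gene's own spread had almost no weight in the limma p-values and intervals. The same held for GqCNO against controls in the SN. The members and the gene lists were chosen with earlier results of these data known. Named genes were the 9 members, the 10 genes most like them and, from each oligodendrocyte list, the called genes and the 2 highest others in white matter. Other genes were named after their values were seen. A gene that this rule would name is not reported here.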

Additional observations from a re-analysis of the deposited data

Results flagged for a closer look

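In groups of 5 control mice, 5 of 60 sets of values held a mouse far from the others by Dixon's criterion, where chance gives about 3. The white matter of GqVeh mouse 784 was the lowest for Mobp (41.1, against 68.6 to 76.5 per 10000 in the other control mice), for Cnp (17.1, against 27.9 to 29.3) and for the sum of the 9 genes (287, against 448 to 489). In the same discs the summed neuronal genes of mouse 784 were at 54.3, the highest of the 8 mice, and the part of this in the low myelin values was not tested. The thalamus of GqVeh mouse 802 was the highest for Mal (3.83, against 1.48 to 2.00) and for Opalin (0.746, against 0.438 to 0.521).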

How the results depend on the processing

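Between GqCNO and control mice, none of the 226 counts of members called and none of the 1017 differences passed the threshold under any alternative that was run. The lowest adjusted p was 0.111, for Mbp in the SN without GqCNO mouse 781, and 81 differences that were not called changed sign. In the striatal region pairs 457 of 459 differences kept their call, and with thinned UMIs CP minus LSX lost Mog (1.07, adjusted p = 0.0712) and Ermn (1.35, adjusted p = 0.0844). The midbrain pairs were less stable. Of the 441 differences there, 29 lost a call and 11 gained one. The 1 member called higher in the SN than in the thalamus became 0 with the 5 control mice alone, TMM scaling, a total without members and mitochondrial genes, no filter or thinned UMIs, and 2 with a smaller constant or the array pair as a block. Leaving out each mouse gave 0 to 3, with 0 without mouse 781, 804, 784 or C2W2. The 2 members called higher in the VTA than in the thalamus became 1 with the 5 control mice alone or a smaller constant, and 0 with TMM scaling, a total without members and mitochondrial genes, no filter or thinned UMIs. Leaving out each mouse gave 0 to 5, with 0 without mouse 784, C1W7 or C2W2 and 1 without mouse 781. The cause was not tested. Ermn and Opalin were at 0 in 4 midbrain values, from columns of 7779 to 25808 UMIs.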
